A study of Homo sapiens with 6 samples.

Results

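The 9 genes followed here link p53 to metabolism and redox control, in HCT116 cells, a human colorectal carcinoma line with wild-type p53. They were chosen by name for their roles, with earlier results of these data known: TP53I3, FDXR, SCO2, GLS2, GSR, GPX1, C12orf5 (the gene of TIGAR), ALDH4A1 and PRODH. All 9 had a row among the 57905 genes of the count matrix and all 9 passed the low-count filter that left 16565 genes to test. Cells received the vehicle DMSO (Nut 0h) or 10 µM Nutlin-3a, a compound that blocks the binding of p53 to its inhibitor HDM2, for 1 h (Nut 1h) or 10 h (Nut 10h). Each condition gave 2 RNA-seq libraries, 6 in all, labelled as biological replicates. The vehicle libraries served both time points, so the comparisons of Nut 1h and Nut 10h with Nut 0h share their controls.

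p53 is a transcription factor that binds DNA as a tetramer and is kept scarce by HDM2 (the product of MDM2). Besides genes of cell cycle arrest and apoptosis, it activates enzymes that act on reactive oxygen species, glutathione, glutamine, proline and sugar phosphates. Some of these enzymes lower oxidant levels in the cell and others raise them. The 9 genes hold examples of both kinds. GPX1 and C12orf5 are known as antioxidant, whereas the products of TP53I3 and PRODH can generate reactive oxygen species.

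Reads assigned to genes numbered between 26068076 and 35473485 per library. MDM2, a p53 target measured as a check of the treatment, rose by 2.19 on the log2 scale at Nut 1h and by 3.74 at Nut 10h. CDKN1A (p21) did not pass the test at Nut 1h, where its log2 fold change was 0.05, and rose by 3.84 at Nut 10h. The Nut 1h values of both genes are not adjusted for the GC-content trend of that time point, described below. The epithelial markers EPCAM, CDH1, KRT8, KRT18 and KRT19 were detected in every library, with summed counts between 96422 and 254231. Of the 3 fibroblast markers, DCN was at 0 in every library, COL1A2 had at most 25 counts and COL1A1 had 621 to 1484. The 3 leukocyte markers together had 1 to 7 counts, and VWF, an endothelial marker, had 10 to 23. The labels call the replicates biological without saying that they were cultured apart, so the p-values measure the spread between these libraries.

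The stretch just upstream of the transcription start is shown for 4 of the genes. TP53I3 is shown because it had the largest rise of the 9 at Nut 10h, and FDXR, GLS2 and GPX1 because a p53 consensus match was found there. The windows are RefSeq sequences on GRCh38.p14, 250 bases long, 5′ to 3′ on the gene's own strand, which is the minus strand in each case. They are chr2:24084835-24085084 for TP53I3, chr17:74872995-74873244 for FDXR, chr12:56488162-56488411 for GLS2 and chr3:49358354-49358603 for GPX1. Capitals mark both decamers of the match to the p53 response element in the stretch shown. For GLS2, another match with the same number of mismatches lay after the start and is not shown.
TP53I3: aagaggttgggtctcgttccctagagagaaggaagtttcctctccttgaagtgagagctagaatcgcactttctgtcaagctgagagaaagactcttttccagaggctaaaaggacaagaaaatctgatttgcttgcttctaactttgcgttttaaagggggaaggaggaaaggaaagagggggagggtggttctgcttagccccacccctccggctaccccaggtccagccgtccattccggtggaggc
FDXR: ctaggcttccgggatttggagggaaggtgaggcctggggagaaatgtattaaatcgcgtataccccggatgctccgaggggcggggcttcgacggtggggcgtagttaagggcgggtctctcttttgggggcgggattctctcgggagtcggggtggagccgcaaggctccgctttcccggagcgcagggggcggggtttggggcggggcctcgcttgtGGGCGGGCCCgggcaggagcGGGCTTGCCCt
GLS2: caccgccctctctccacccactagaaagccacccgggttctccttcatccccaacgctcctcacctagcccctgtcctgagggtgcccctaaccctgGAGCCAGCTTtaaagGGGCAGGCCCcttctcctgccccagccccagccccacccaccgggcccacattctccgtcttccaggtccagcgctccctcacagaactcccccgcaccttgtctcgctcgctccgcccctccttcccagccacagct
GPX1: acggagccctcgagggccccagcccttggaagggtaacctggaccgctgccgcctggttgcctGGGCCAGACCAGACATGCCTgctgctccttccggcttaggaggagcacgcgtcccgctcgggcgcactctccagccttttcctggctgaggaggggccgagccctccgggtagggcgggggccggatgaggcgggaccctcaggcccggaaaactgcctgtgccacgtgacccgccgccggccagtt

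The p53 response element consensus was searched as a single decamer, which is a run of purines, a C, A or T letters, a G and a run of pyrimidines, and as a full site of a pair of decamers with at most 2 mismatches and a spacer of up to 13 bases, on both strands. Searches covered 250 bases before to 50 after the start in the 6 genes whose windows were read. FDXR held a full site from -31 to -2 with a spacer of 10 bases, and its second decamer, GGGCTTGCCC from -11 to -2, matched without a mismatch. GPX1 held a full site without a spacer from -187 to -168, GGGCCAGACCAGACATGCCT, whose second decamer matched exactly. GLS2 held a full site from -153 to -129 with a spacer of 5 bases and another from 30 to 49. No match stood in the windows of TP53I3, C12orf5 and ALDH4A1, which says only that these letters are not in this stretch. Among 35116 promoter windows of the same length, 2.93% held a full site and 6.63% a single decamer without mismatch. These matches are descriptions of sequence, and binding was not measured in these libraries. GGGCGG, the GC box, on either strand occurred in 5 of the 6 windows and in 45.0% of all windows, and TATAAA in none of the 6 and in 11.5% of all. The FDXR window held 6 of these, of which the one at -31 overlapped the full site. CCAAT was found in 1 of the 6, that of C12orf5, and in 34.6% of all windows. A tandem of TGCCC or TGTCC was found in none of the 6 and in 0.0256% of all windows.

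After 10 h of Nutlin-3a, 6 of the 9 genes were upregulated, 1 was downregulated and 2 did not pass an adjusted p of 0.05. In order of log2 fold change, TP53I3, FDXR, PRODH, C12orf5, GPX1 and ALDH4A1 rose, SCO2 fell, and GLS2 and GSR were not called. Of all 16565 tested genes, 14.1% were called higher and 14.9% lower in this comparison. The median log2 fold change of the 9 was 0.81, beside 0.000174 over all tested genes. In bulk RNA, a change in the number of cells that express a gene and a change in RNA per cell cannot be told apart.

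After 1 h, the same list read otherwise. C12orf5 was the only one of the 9 called higher, and 6 were called lower: GPX1, SCO2, ALDH4A1, PRODH, FDXR and TP53I3. GLS2 and GSR again did not pass. The shares of all tested genes were 34.5% higher and 32.3% lower, and the median log2 fold change was -0.61 for the 9 against 0.05 for all genes. At this time point the log2 fold change fell with the GC content of a gene's longest transcript. Of 2443 tested genes over 60% GC, 84.4% were called lower and 0.573% higher, and of 2613 genes under 40%, 82.6% were called higher and 1.34% lower. The 6 genes called lower had a GC content of 58.8% to 65.6%, and C12orf5 had 41.1%. When a smooth GC trend was taken out of each library (a GC-content offset), 3 of the 9 were called higher and 2 lower at Nut 1h, with a median of -0.00995, beside 20.3% and 24.8% of all tested genes under the offset. The 10 h comparison under the same offset also had 6 higher and 1 lower, beside 16.7% and 22.6% of all. The Nut 1h tests of the 9 genes are therefore given with and without the offset, and why the trend exists was not tested.

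**Figure D1:**
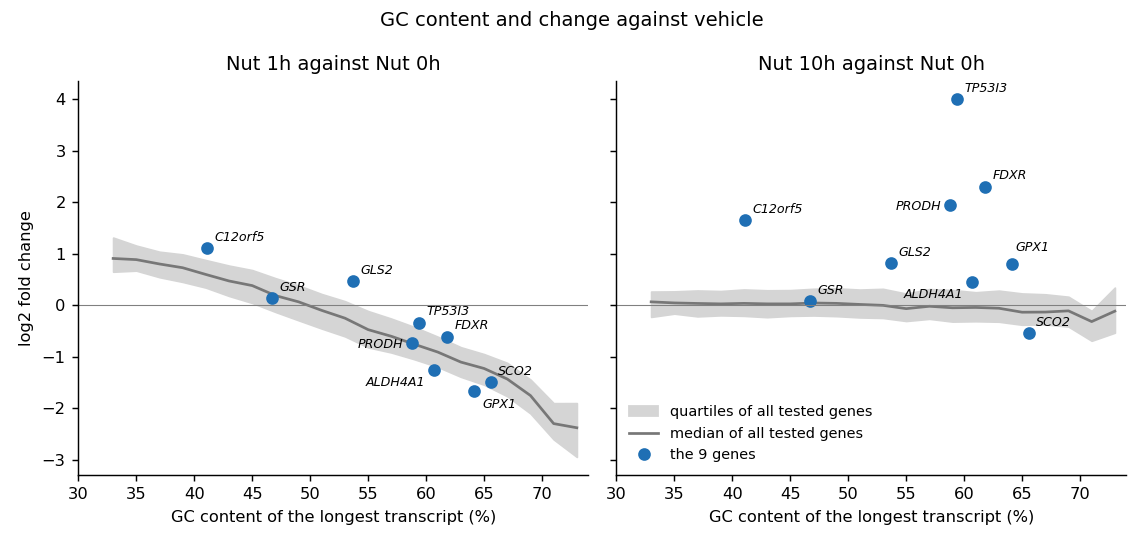
Log2 fold change against Nut 0h (vertical axis) by GC content of the longest transcript in percent (horizontal axis) at Nut 1h (left) and Nut 10h (right). The grey line is the median and the band the quartiles of all tested genes in 2-percentage-point bins, and blue points are the 9 genes. At Nut 1h the line falls with GC content and C12orf5, at 41.1% GC, lies at 1.11 while GPX1, at 64.1%, lies at -1.68. At Nut 10h the line stays near 0.

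**Figure D2:**
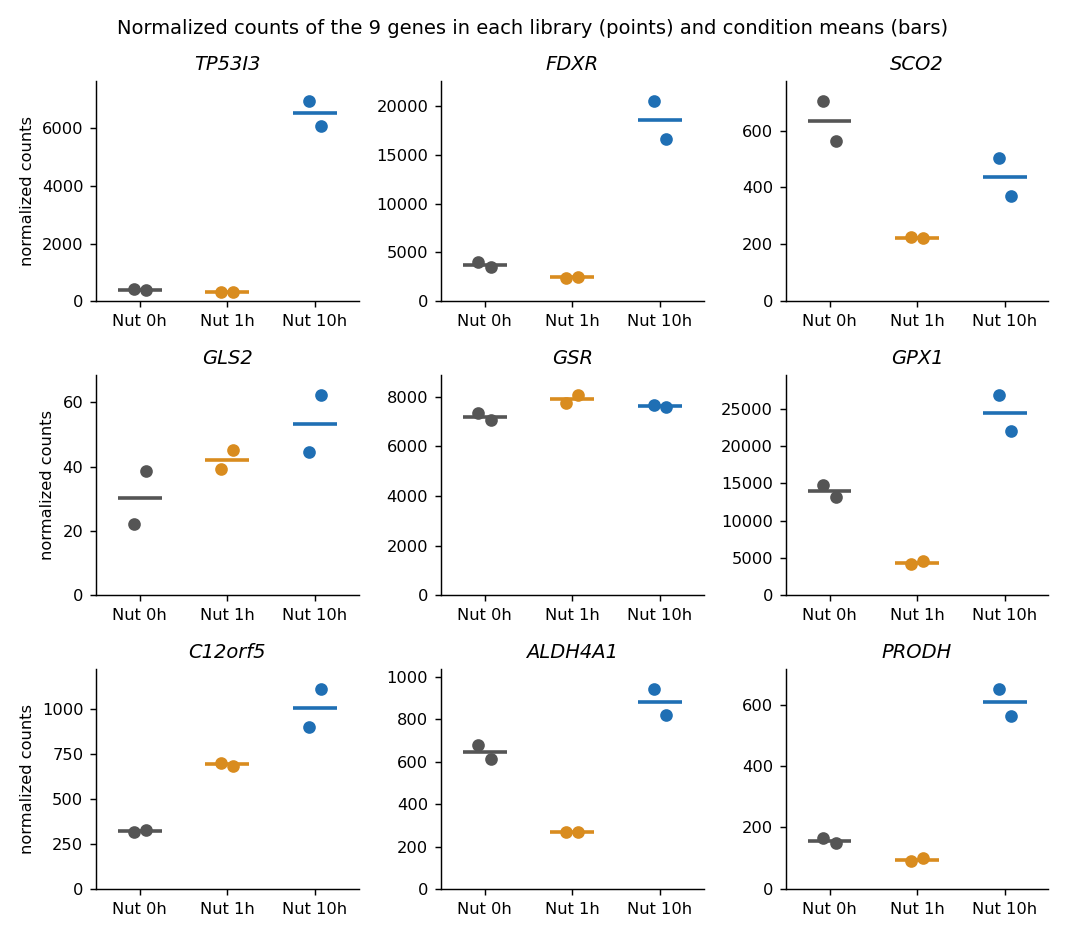
Normalized counts (vertical axes, linear and starting at 0, 1 scale per gene) of the 9 genes in the 2 libraries of each condition (horizontal axes). Points are libraries and bars are means of the 2. At Nut 10h 7 of the genes are called higher than at Nut 1h. GLS2 overlaps between these conditions, and GSR differs by less than its standard error.

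Between the time points, 7 of the 9 were higher at Nut 10h than at Nut 1h and none was called lower, against 34.2% and 33.7% of all tested genes. The 2 not called were GLS2 and GSR. This comparison carries the GC trend of the Nut 1h libraries, and with the offset 6 were higher and 1, SCO2, was lower, beside 28.8% and 29.0% of all. Normalized counts of the 2 conditions did not overlap for 9 of 9 genes between Nut 1h and Nut 0h, for 9 of 9 between Nut 10h and Nut 0h and for 8 of 9 between the time points. The same held for 84.8%, 61.4% and 85.0% of all tested genes.

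TP53I3 (PIG3) encodes a quinone oxidoreductase that reduces quinones with NADPH. Its gene is ENSG00000115129 on GRCh37 chr2:24300303-24308731, minus strand. Normalized counts (each count over its TMM-scaled library size, brought back to an average library) were 423 and 386 with vehicle, 314 and 326 after 1 h and 6929.9 and 6078 after 10 h. Both Nut 10h libraries stood far above the other 4, and both Nut 1h libraries were the lowest. The rise at Nut 10h was 16.1-fold, a log2 fold change of 4.01 ± 0.11 (SE), with an adjusted p of 1.03e-10. It had the lowest p-value of all tested genes and ranked 21 by size of rise. At Nut 1h the log2 fold change was -0.34 ± 0.12 (adjusted p = 0.0186). Once GC content was offset it was 0.44 (adjusted p = 0.000807), a call in the other direction. The Nut 1h fall lost its call when Nut 0h replicate 1 (-0.28) or either Nut 1h library (-0.31 and -0.37) was left out, and under a transcript length offset (-0.072, adjusted p = 0.565). The direction of TP53I3 after 1 h thus depended on the GC-content offset, and that after 10 h did not. FAM228B shares 80 bases, 3.46% of the TP53I3 exons, on the opposite strand and had at most 70 counts in any library.

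The genes whose pattern lay nearest to TP53I3 were sought among 11576 genes that averaged 100 or more normalized counts, by the Euclidean distance over 6 libraries of log2(CPM + 1) less its Nut 0h mean. CDKN1A was the nearest at a distance of 0.525. SORCS2, a sortilin-family receptor gene, followed at 0.586 and SULF2, which encodes a heparan sulfate endosulfatase, at 0.949. At Nut 10h their log2 fold changes were 3.84 for CDKN1A, 5.26 for SORCS2 and 3.34 for SULF2, and at Nut 1h, without the offset, they were 0.05, -0.96 and -0.37. SORCS2 had only 8.81 to 34.8 normalized counts in the vehicle and Nut 1h libraries, where adding 1 CPM compresses differences, and it reached the average of 100 through the Nut 10h libraries alone. Its fitted changes lay farther from those of TP53I3 than the changes of SULF2 did, so its place in this order is not firm.

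FDXR encodes ferredoxin reductase, which passes electrons from NADPH to mitochondrial ferredoxins for steroid and iron-sulfur cluster synthesis. Its gene is ENSG00000161513 on GRCh37 chr17:72858619-72869156, minus strand. It had 3989 and 3527 normalized counts with vehicle, 2410 and 2512 after 1 h and 20496 and 16646 after 10 h. The Nut 10h libraries were well above all others although they differed from each other more than the remaining pairs did. The rise at Nut 10h was 4.94-fold (log2 fold change 2.30 ± 0.12 SE, adjusted p = 5.43e-09). At Nut 1h the log2 fold change was -0.61 ± 0.11 (adjusted p = 0.000262), and once GC content was offset it was 0.37 (adjusted p = 0.000531), again called in the other direction. FDXR and TP53I3 were the 2 genes of the 9 whose early call turned over with the offset.

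SCO2 encodes a copper chaperone needed to build cytochrome c oxidase, the last complex of the respiratory chain. Its gene, ENSG00000130489, lies on GRCh37 chr22:50961997-50964890, minus strand. It had 703 and 563 normalized counts with vehicle, 226 and 222 after 1 h and 503 and 370.4 after 10 h. The vehicle libraries were the highest and the Nut 1h libraries the lowest, and no condition overlapped another. SCO2 was the only gene of the 9 called lower after 10 h (log2 fold change -0.54 ± 0.15 SE, adjusted p = 0.0140). This call was lost when Nut 0h replicate 1 (-0.37, adjusted p = 0.0999) or Nut 10h replicate 2 (-0.32, adjusted p = 0.103) was left out. At Nut 1h it changed by -1.50 ± 0.16 (adjusted p = 2.24e-06), a fall, against -0.15 (adjusted p = 0.280) once GC content was offset. From Nut 1h to Nut 10h the log2 fold change was 0.96, and with the offset it was -0.35 (adjusted p = 0.0144). SCO2 had the highest GC content of the 9, 65.6%.

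The counts of SCO2 are uncertain because its exons are shared. NCAPH2, a condensin subunit gene on the opposite strand, covers 857 bases or 62.1% of them, and TYMP, the thymidine phosphorylase gene on the same strand, covers 361 bases or 26.1%. Whether the authors counted by strand is not given in the sources used here. NCAPH2 had 5541 and 5038 counts with vehicle, 2551 and 2128 after 1 h and 3162 and 2671 after 10 h. TYMP had 1376 and 1141 with vehicle, 448 and 445 after 1 h and 1470 and 1244 after 10 h. As raw counts, both neighbours were lowest in the Nut 1h libraries, whose totals were also the smallest (31731267 and 26068076). These counts are not scaled for library size. As a share of the library total, NCAPH2 was lowest in Nut 10h replicate 2, so its order did not hold, while TYMP stayed lowest at Nut 1h. At Nut 10h the counts of NCAPH2 stayed below its vehicle libraries while those of TYMP did not. A long non-coding RNA without a symbol covers 499 bases or 36.1%, in part the same ones, and had 60 to 205 counts. The genes nearest to SCO2 in pattern were FZR1 (distance 0.117), GNB1L (0.135) and NT5M (0.147). FZR1 encodes an activator of the anaphase-promoting complex and NT5M a mitochondrial nucleotidase. Their log2 fold changes without the offset at Nut 1h were -1.39, -1.48 and -1.63, and at Nut 10h -0.50, -0.49 and -0.56.

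GLS2 encodes the liver-type glutaminase, which turns glutamine into glutamate in mitochondria. Its gene is ENSG00000135423 on GRCh37 chr12:56864728-56882198, minus strand. It had the fewest counts of the 9, with 23 and 41 raw counts with vehicle, 39 and 36 after 1 h and 46 and 67 after 10 h. In the same order, normalized counts were 22.2 and 38.5, 39.1 and 45.3, and 44.5 and 62.3. Vehicle libraries were lowest, and the Nut 1h and Nut 10h libraries overlapped. The log2 fold change was 0.46 ± 0.33 (SE, adjusted p = 0.227) at Nut 1h and 0.81 ± 0.31 (adjusted p = 0.0658) at Nut 10h, so that neither passed. Once GC content was offset the Nut 1h value was 0.78 (adjusted p = 0.0613). With replicate number as a further term in the fit, the Nut 10h value was 0.82 and passed (adjusted p = 0.0435). The replicate numbers were not shown to mark a shared culture. The Nut 10h value passed without the low-count filter (adjusted p = 0.0335), when Nut 0h replicate 2 was left out (1.26, adjusted p = 0.0168) and when Nut 10h replicate 1 was (1.03, adjusted p = 0.0174). It fell to 0.47 (adjusted p = 0.392) when Nut 0h replicate 1 was left out and to 0.56 (adjusted p = 0.319) when Nut 10h replicate 2 was, and the Nut 1h value ranged from 0.12 to 0.90 over the libraries left out. The counts of GLS2 are uncertain too, because SPRYD4 on the opposite strand covers 3194 bases, 77.1% of the GLS2 exons, and the strand setting is not known. SPRYD4 had 206 and 231 raw counts with vehicle, 212 and 202 after 1 h and 304 and 339 after 10 h, the highest values being those of Nut 10h.

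GSR encodes glutathione reductase, which regenerates reduced glutathione with NADPH. Its gene is ENSG00000104687 on GRCh37 chr8:30535583-30585363, minus strand. It had 7346 and 7064 normalized counts with vehicle, 7764 and 8079 after 1 h and 7665 and 7597 after 10 h. The 6 libraries lay close together, with the vehicle libraries lowest. The log2 fold change was 0.14 ± 0.09 (SE, adjusted p = 0.184) at Nut 1h and 0.08 ± 0.09 (adjusted p = 0.525) at Nut 10h, the smallest changes of the 9 at both time points. Once GC content was offset they were -0.12 and 0.02. The Nut 1h value was called higher with a transcript length offset (0.30, adjusted p = 0.00633) and with library totals in place of TMM (0.19, adjusted p = 0.0449).

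GPX1 encodes the cytosolic glutathione peroxidase, a selenoprotein that reduces hydrogen peroxide at the cost of glutathione. Its gene is ENSG00000233276 on GRCh37 chr3:49394607-49396038, minus strand. It had 14763 and 13181 normalized counts with vehicle, 4153 and 4591 after 1 h and 26855 and 21988 after 10 h. The Nut 1h libraries were the lowest and the Nut 10h libraries the highest, without overlap. GPX1 was 3.20-fold lower at Nut 1h (log2 fold change -1.68 ± 0.11 SE, adjusted p = 1.04e-07), the largest fall of the 9, and 1.75-fold higher at Nut 10h (0.81 ± 0.11, adjusted p = 9.11e-05). After the offset the early fall was smaller but stayed called, at -0.48 (adjusted p = 4.25e-05), and the late rise was 0.83. The ratio of GPX1 to GSR counts within a library went from 2.01 and 1.87 at Nut 0h to 0.535 and 0.568 at Nut 1h and to 3.50 and 2.89 at Nut 10h. These ratios are of raw counts of genes with 64.1% and 46.7% GC, so the values at Nut 1h carry the GC trend. The offset brought the Nut 1h changes to -0.48 for GPX1 and -0.12 for GSR.

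**Figure D3:**
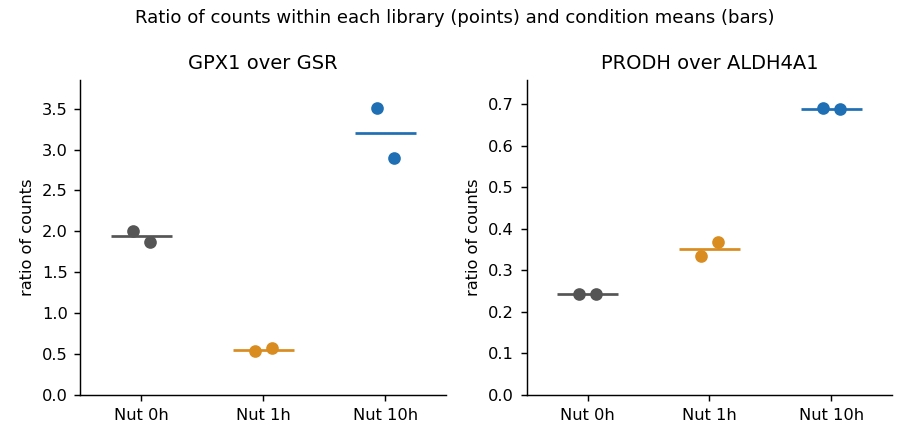
Ratio of raw counts of 2 genes within each library (vertical axes, starting at 0) by condition (horizontal axes), GPX1 over GSR on the left and PRODH over ALDH4A1 on the right. Points are the 2 libraries of a condition and bars are their means. The GPX1 over GSR ratio, which carries the GC trend, is lowest at Nut 1h (0.535 and 0.568), and the PRODH over ALDH4A1 ratio is highest at Nut 10h (0.690 and 0.689). Neither ratio has the GC-content offset.

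C12orf5 encodes TIGAR, a phosphatase that lowers fructose bisphosphate levels and so turns glucose towards the pentose phosphate pathway. Its gene is ENSG00000078237 on GRCh37 chr12:4416929-4469194, plus strand. It had 317 and 325 normalized counts with vehicle, 699 and 685 after 1 h and 899 and 1112 after 10 h. The 3 conditions followed in order of time without overlap. The rise was 2.16-fold at Nut 1h (log2 fold change 1.11 ± 0.12 SE, adjusted p = 3.21e-06) and 3.13-fold at Nut 10h (1.65 ± 0.12, adjusted p = 1.62e-07), and the step from Nut 1h to Nut 10h was 0.54 (adjusted p = 0.000859). Once GC content was offset the Nut 1h rise was 0.49 (adjusted p = 0.000473) and the Nut 10h rise 1.61, and the step between them was 1.12. C12orf5 was the only one of the 9 called higher at both time points in the test without the offset, and the direction at Nut 1h was kept under each of the 17 alternatives tried.

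PRODH and ALDH4A1 encode the mitochondrial enzymes that break proline down to glutamate in turn, proline dehydrogenase first and the pyrroline-5-carboxylate dehydrogenase after it. PRODH is ENSG00000100033 on GRCh37 chr22:18900290-18924066 and ALDH4A1 is ENSG00000159423 on chr1:19197924-19229218, both on the minus strand. PRODH had 164 and 149 normalized counts with vehicle, 89.3 and 99.4 after 1 h and 652 and 564 after 10 h. Its Nut 10h libraries stood above all others and its Nut 1h libraries below. The rise at Nut 10h was 3.87-fold (log2 fold change 1.95 ± 0.13 SE, adjusted p = 8.12e-08). At Nut 1h the value was -0.74 ± 0.16 (adjusted p = 0.00106), against -0.00995 once GC content was offset (adjusted p = 0.963). DGCR6 on the opposite strand shares 675 bases, 7.75% of the PRODH exons, and had 547 and 484 counts with vehicle, 219 and 190 after 1 h and 567 and 518 after 10 h. PRODH also has a pseudogene copy on its chromosome, so that its reads may be shared.

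ALDH4A1 had 679 and 612 normalized counts with vehicle, 268 and 271 after 1 h and 945 and 819 after 10 h. The order of the conditions was that of PRODH, over a smaller range at Nut 10h. RP13-279N23.2, annotated on the same strand, shares 1517 bases or 41.8% of the ALDH4A1 exons and had 0 counts in every library. After 10 h the log2 fold change of ALDH4A1 was 0.45 ± 0.11 (SE, adjusted p = 0.00725), the smallest called rise of the 9. The fall at Nut 1h was -1.26 ± 0.12 (log2, adjusted p = 9.97e-07), against -0.37 (adjusted p = 0.00377) once GC content was offset. The ratio of PRODH to ALDH4A1 counts within a library was 0.242 and 0.244 with vehicle, 0.333 and 0.367 after 1 h and 0.690 and 0.689 after 10 h. These ratios are of raw counts without the GC-content offset. With the offset, the Nut 1h changes were -0.00995 for PRODH and -0.37 for ALDH4A1.

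**Figure D4:**
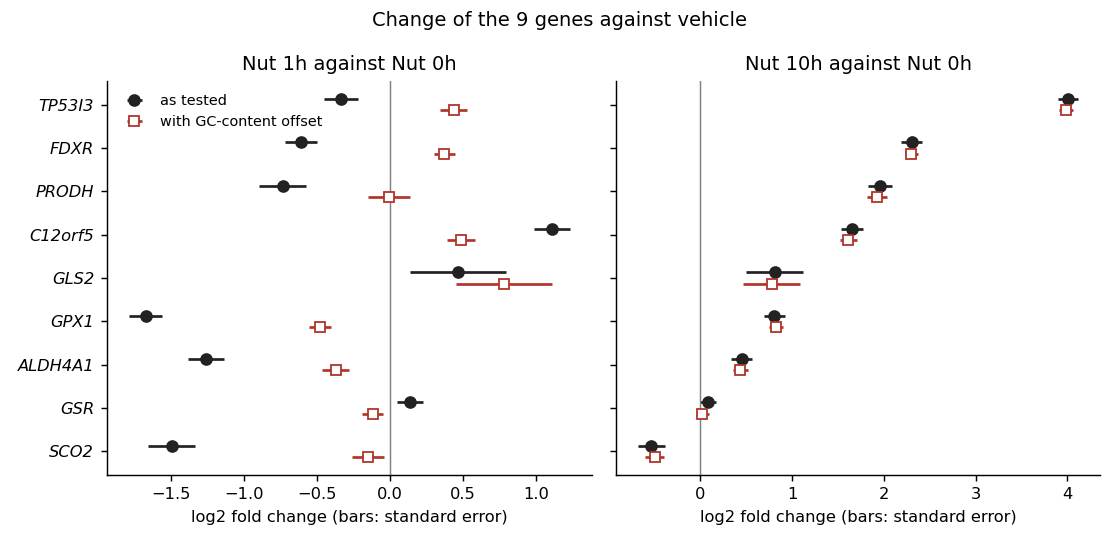
Log2 fold change of the 9 genes (horizontal axes, bars are standard errors) at Nut 1h (left) and Nut 10h (right) against Nut 0h. Filled circles are the values as tested and open squares those with the GC-content offset. At Nut 1h TP53I3 moves from -0.34 to 0.44 and FDXR from -0.61 to 0.37 with the offset, and at Nut 10h circles and squares lie together.

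As counts per kilobase of exon and per library size (CPM per kilobase), GPX1 was the most abundant of the 9 in each condition, with means of 295 with vehicle, 92.4 after 1 h and 516 after 10 h. Values of the other genes follow in that order, and those after 1 h carry the GC trend. GSR came next at Nut 0h and Nut 1h with 60.5 and 66.6, and FDXR took its place at Nut 10h with 156 against 64.1 for GSR. TP53I3 went from 5.30 to 4.19 and then to 85.1 and so passed GSR as well. SCO2 (13.9, 4.90 and 9.56), ALDH4A1 (5.38, 2.24 and 7.35) and C12orf5 (1.03, 2.22 and 3.22) stayed below GPX1, GSR and FDXR in each condition. PRODH (0.544, 0.328 and 2.11) and GLS2 (0.222, 0.309 and 0.390) were lowest. The exon lengths merge all transcripts of GENCODE lifted to GRCh37, whose gene models may differ from those that were counted. They include the exons that GLS2 and SCO2 share with neighbours, so the order between genes is approximate. At Nut 1h GLS2 and PRODH overlapped, with 0.286 and 0.331 against 0.310 and 0.345 in their libraries. ALDH4A1 and C12orf5 also overlapped there, with 2.23 and 2.25 against 2.24 and 2.19. At Nut 0h TP53I3 (5.54 and 5.05) and ALDH4A1 (5.66 and 5.10) overlapped.

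The other genes of the same pathways were counted in 8 lists with 121 genes in the matrix, of which 112 were tested and none is one of the 9. At Nut 10h 11 of the 112 were called higher (9.82%) and 8 lower (7.14%), beside 14.1% and 14.9% of all tested genes. Both counts moved when single libraries were left out, and at an adjusted p of 0.01 they were 3 and 4. At Nut 1h 37 were higher (33.0%) and 45 lower (40.2%), beside 34.5% and 32.3%. The GC-content offset gave 19 higher and 48 lower after 1 h, and 12 higher and 21 lower after 10 h. The shares of all tested genes under the offset were 20.3% and 24.8% after 1 h, and 16.7% and 22.6% after 10 h.

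**Figure D5:**
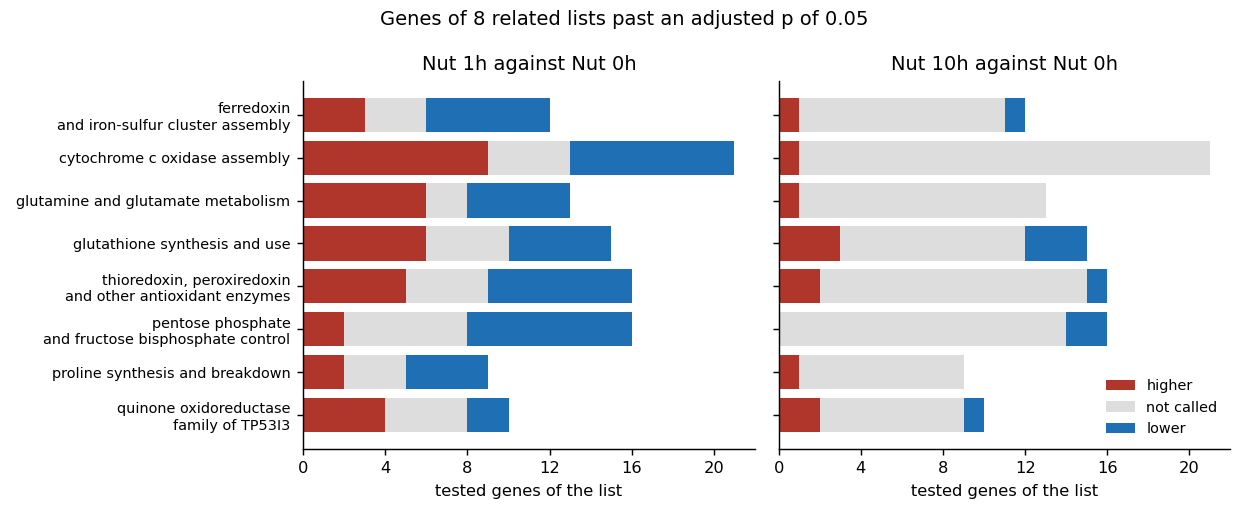
Number of tested genes (horizontal axes) called higher (red), called lower (blue) or not called (grey) at an adjusted p of 0.05 in each of the 8 lists (vertical axis) at Nut 1h (left) and Nut 10h (right) against Nut 0h. Most bars are grey at Nut 10h, where 93 of 112 genes were not called, while 30 were not called at Nut 1h.

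Around FDXR, the ferredoxin and iron-sulfur cluster list had 12 tested genes, of which 3 were higher and 6 lower at Nut 1h and 1 was higher and 1 lower at Nut 10h. With the offset, 1 was higher and 7 lower at Nut 1h, and 1 higher and 2 lower at Nut 10h. ISCU, the scaffold on which the clusters are built, rose by 0.98 at Nut 10h on the log2 scale (adjusted p = 1.89e-06), from a mean of 2806 to 5536 normalized counts. GLRX5, which carries clusters onwards, fell by 0.65 (adjusted p = 0.000107). At Nut 1h the largest changes were a rise of ISCA1 (0.78), which was 0.14 and not called with the offset, and a fall of NFS1, the cysteine desulfurase (-0.61, and -0.87 with the offset).

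Around SCO2, 21 cytochrome c oxidase assembly genes were tested, of which 9 were higher and 8 lower at Nut 1h (5 and 11 with the offset). At Nut 10h COX14 was called higher (0.36, adjusted p = 0.0335) and the other 20 were not called, while the offset left 1 higher and 2 lower. At Nut 1h COA5 rose by 1.02 (0.44 with the offset), and PET100 fell by 1.97 (adjusted p = 2.68e-06), from a mean of 178 to 45.4 normalized counts, and by 1.52 with the offset. SCO1, the paralogue of SCO2, had a log2 fold change of 0.40 at Nut 1h, a call that was lost with the offset (0.0024, adjusted p = 0.986), and of -0.11 at Nut 10h, which was not called. It was named after its values were seen.

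Around GLS2, 13 genes of glutamine and glutamate metabolism were tested, of which 6 were higher and 5 lower at Nut 1h (2 and 4 with the offset). At Nut 10h ASNS, asparagine synthetase, was the single call, with a rise of 0.66 (adjusted p = 0.000157), and the offset gave 2 higher and 1 lower. At Nut 1h GLUD2 rose by 2.37 (2.20 with the offset) from a mean of 5.22 to 27.1 normalized counts, on few reads, and it is a near copy of GLUD1, so its reads may be shared. GPT, an alanine transaminase gene, fell by 1.68, and with the offset its value was -0.20 and not called.

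Around GSR and GPX1, 15 genes of glutathione synthesis and use were tested, of which 6 were higher and 5 lower at Nut 1h and 3 were higher and 3 lower at Nut 10h. The offset gave 2 higher and 7 lower at Nut 1h, and 3 higher and 5 lower at Nut 10h. MGST2, a microsomal glutathione transferase, rose by 0.90 at Nut 10h (adjusted p = 6.21e-05) and GPX8, an endoplasmic reticulum peroxidase, fell by 0.81 (adjusted p = 8.99e-05). At Nut 1h SLC7A11, the cystine importer, rose by 1.94 (adjusted p = 2.19e-07) from a mean of 819 to 3152 normalized counts, and by 1.04 with the offset. CHAC1, which degrades glutathione, fell by 1.35, and by 0.42 with the offset. Of 16 thioredoxin, peroxiredoxin and other antioxidant genes, 5 were higher and 7 lower at Nut 1h (2 and 8 with the offset) and 2 were higher and 1 lower at Nut 10h (2 and 3 with it). SRXN1, sulfiredoxin, which reactivates peroxiredoxins, fell by 3.98 at Nut 1h (adjusted p = 8.41e-08) from a mean of 585 to 38.1 normalized counts, and its value with the offset was -3.83. At Nut 10h its mean was 586. SOD2, the mitochondrial superoxide dismutase, rose by 0.57 at Nut 1h, where it was -0.03 with the offset, and fell by 0.38 at Nut 10h. HMOX1, heme oxygenase, rose by 0.40 at Nut 10h (adjusted p = 0.0230).

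Around C12orf5, 16 genes of the pentose phosphate pathway and fructose bisphosphate control were tested, of which 2 were higher and 8 lower at Nut 1h (5 and 5 with the offset) and none was higher and 2 lower at Nut 10h (0 and 3 with it). PFKFB4, a kinase and phosphatase of fructose phosphates, fell by 0.49 at Nut 10h (adjusted p = 0.00184). At Nut 1h its family member PFKFB2 rose by 0.98 (0.49 with the offset), and PGLS, the lactonase of the pentose phosphate pathway, fell by 1.22 (-0.25 with the offset). Around PRODH and ALDH4A1, 9 genes of proline synthesis and breakdown were tested, of which 2 were higher and 4 lower at Nut 1h (0 and 3 with the offset). HOGA1, an aldolase of hydroxyproline breakdown, rose by 1.02 at Nut 10h (adjusted p = 0.0162) and was the only call there, while the offset gave 1 higher and 3 lower. At Nut 1h P4HA1, a prolyl hydroxylase subunit, rose by 0.56 and was -0.07 with the offset, and PYCRL, a proline synthesis enzyme, fell by 1.56 (-0.62 with the offset). In the quinone oxidoreductase family of TP53I3, 10 genes were tested, of which 4 were higher and 2 lower at Nut 1h (2 and 3 with the offset) and 2 were higher and 1 lower at Nut 10h (2 and 2 with it). PTGR2 rose by 0.46 (adjusted p = 0.0491) and ZADH2 fell by 0.32 (adjusted p = 0.0353) at Nut 10h. At Nut 1h PTGR2 rose by 0.92 and VAT1 fell by 0.87, and with the offset they were 0.07 and -0.15, neither called.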

How the data were processed

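RNA-seq of HCT116 cells given vehicle or Nutlin-3a was used, with 2 libraries for each of 3 conditions. The authors trimmed reads with Trim Galore 0.6.6, aligned them to GRCh37.p13 with STAR 2.7.0f and counted them per gene with featureCounts (Subread 2.0.0). The deposited matrix holds these counts without normalization, for 57905 genes. Gene symbols came from the table of comparisons that the authors deposited, whose fold changes and p-values from DESeq2 1.36.0 were not used. Strand setting and treatment of multimapping reads are not given in the sources used here.

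Genes were filtered with filterByExpr (16565 kept), scaled by TMM and tested in R 4.3.3 by the quasi-likelihood method of edgeR 4.0.16 (which loads limma 3.58.1) on all 6 libraries with condition as the only term and 3 residual degrees of freedom. Benjamini-Hochberg adjustment ran over all tested genes, with calls at 0.05. The standard error is the size of the log2 fold change over the square root of F. The offsets are loess trends (span 0.4) of each library's deviation on GC content or length of the longest transcript, from GENCODE lifted to GRCh37, the build of the counts. SCO2 was matched to it by symbol. DESeq2 1.42.0 was an alternative. The scripts were tested on simulated data.

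The members and lists were chosen with earlier results of these data known. Besides the 9 genes, the text names the largest called rise and fall of each list at each time point, and the 3 genes nearest in pattern to the largest rise and fall of the 9 at Nut 10h. MDM2 and CDKN1A check the treatment, and SCO1 was named after its values were seen. Replicates differed by more than sampling noise in every condition (chi-square per degree of freedom of 5.13 to 16.7), so each library was counted once. A further gene of the lists is not reported here.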

Additional observations from a re-analysis of the deposited data

Results flagged for a closer look

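The effect of Nutlin-3a against vehicle differed between the time points in 7 of the 9 genes, by the edgeR test of Nut 10h against Nut 1h, in which the shared vehicle libraries cancel. All 7 were called higher at Nut 10h. Of all tested genes, 34.2% were called higher and 33.7% lower in that test. Most tested genes thus differed in either direction, so a difference as such is not particular to the 9. The difference in log2 fold change (Nut 10h less Nut 1h) was 4.35 for TP53I3 (adjusted p = 5.27e-11), 2.92 for FDXR (adjusted p = 3.97e-10) and 2.69 for PRODH (adjusted p = 3.20e-09). It was 2.48 for GPX1 (adjusted p = 1.04e-09), 1.71 for ALDH4A1 (adjusted p = 3.34e-08), 0.96 for SCO2 (adjusted p = 0.000115) and 0.54 for C12orf5 (adjusted p = 0.000859). In all 7 genes both Nut 10h libraries stood above both Nut 1h libraries, and the 2 conditions did not overlap in 85.0% of all tested genes. TP53I3, FDXR, PRODH, GPX1 and ALDH4A1 were called lower at Nut 1h and higher at Nut 10h against the same vehicle libraries. With the GC-content offset, of these only GPX1 (-0.48) and ALDH4A1 (-0.37) were called lower at Nut 1h, TP53I3 (0.44) and FDXR (0.37) were called higher, and PRODH (-0.00995) was not called. The GC trend of the Nut 1h libraries enters these differences. Under the offset they were 3.55 for TP53I3, 1.93 for FDXR, 1.94 for PRODH, 1.31 for GPX1, 0.81 for ALDH4A1, 1.12 for C12orf5 and -0.35 for SCO2.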

How the results depend on the processing

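Of the values of the 9 genes under the alternatives, 427 kept direction and side of the threshold, 13 changed sign, 10 lost their call and 9 gained one. With the GC-content offset, 3 of the 9 genes were higher and 2 lower at Nut 1h, and 1 was lower at Nut 10h against Nut 1h. Pathway genes higher at Nut 1h numbered 19, those lower at Nut 10h 21 and those lower at Nut 10h against Nut 1h 26. Signs changed for TP53I3 (0.44), FDXR (0.37) and GSR (-0.12) at Nut 1h, and for SCO2 (-0.35), GLS2 (-0.0041) and GSR (0.14) at Nut 10h against Nut 1h. The cause of the GC trend was not tested.

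The replicate numbers were not shown to mark a shared culture, and deviations of same-numbered libraries correlated at -0.309, 0.446 and -0.279 over the 3 pairs of conditions. With the replicate block, 1 gene of the 9 was higher and 6 were lower at Nut 1h, and 7 were higher and 1 lower at Nut 10h, the gain being GLS2 (0.82, adjusted p = 0.0435), and no other call of the 9 changed. The replicate block together with the GC-content offset, chosen after seeing the data, gave 4 higher and 2 lower at Nut 1h, and 1 lower at Nut 10h against Nut 1h. It gave 17 pathway genes higher at Nut 1h, 21 lower at Nut 10h and 25 lower between time points. Under it TP53I3 (0.44), FDXR (0.37) and GSR (-0.12) at Nut 1h and SCO2 (-0.35), GLS2 (-0.033) and GSR (0.14) between time points also changed sign. Shares of all tested genes under the replicate block, alone or with the offset, are not given here, so these counts have no background beside them.

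With library totals in place of TMM, which moved the median of all genes at Nut 1h to 0.103, 2 genes of the 9 were higher at Nut 1h. With a transcript length offset, 2 were higher at Nut 1h and 1 was lower at Nut 10h against Nut 1h, the added gene being GSR in each case. Shares of all tested genes under these settings are not given here either. At an adjusted p of 0.01, 0 genes of the 9 were lower at Nut 10h, and 3 pathway genes were higher and 4 lower. DESeq2 called 7 pathway genes higher at Nut 10h, and a fit of the 2 conditions alone called 5 lower. Leaving out each library in turn, with the lone library assumed to vary like the others, gave 0 to 1 genes of the 9 lower at Nut 10h (0 when Nut 0h replicate 1 or Nut 10h replicate 2 was left out), 5 to 11 pathway genes higher and 5 to 10 lower there, and -0.088 to 0.0035 for GSR at Nut 10h against Nut 1h. Pathway genes higher at Nut 10h were 5 when Nut 0h replicate 2 was left out, and 6 without Nut 0h replicate 1 or either Nut 1h library, and those lower were 5 without Nut 10h replicate 2 or either Nut 1h library. GLS2 had at most 67 counts in any library, and whether this depth or the exons shared with SPRYD4 limited its result was not tested.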
